A study of Mus musculus with 1012 samples.

Results

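The G2 and mitosis genes are a list of 51 genes whose transcripts accumulate between DNA replication and cell division, and they were followed by name through every state, technique and batch of a data set of 1012 single mouse cell libraries. All 51 were rows of the count table, which holds 30452 features, and all 51 passed the filter on low counts in each of the 10 fits described here. Live-seq libraries were made from cytoplasm withdrawn from a living cell through a hollow cantilever (FluidFM) and amplified by an enhanced Smart-seq2 protocol, whereas scRNA-seq libraries were made from whole lysed cells with Smart-seq2. Live-seq gave 50 RAW_LPS, 44 IBA, 61 ASPC_Pre and 37 ASPC_Post libraries, and RAW_Mock libraries of 8, 20, 63 and 12 cells in 4 batches plus 1 cell of the parent line. By scRNA-seq there were 60 ASPC_Pre and 35 ASPC_Post cells and, in batches 8_8, 9_1 and scRNA, 16, 46 and 95 RAW_Mock, 15, 46 and 88 RAW_LPS and 15, 45 and 93 IBA cells. A further 162 scRNA-seq libraries came from IBA cells of a sampling experiment. Of these, 49 were made 1 h and 43 made 4 h after Live-seq extraction, and the 70 labelled 0 h are, by the study's methods, control cells from which nothing was extracted.

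RAW cells are RAW264.7 macrophage-like cells. All scRNA-seq RAW cells and nearly all Live-seq RAW cells were of RAW-G9, a cloned RAW264.7 subline that carries mCherry under the Tnf promoter and a fusion of EGFP with Rela. The others (batch 5Reseq, 11 RAW_LPS and 1 RAW_Mock) were wild-type RAW264.7 cells. RAW_LPS cells had received lipopolysaccharide, a bacterial cell wall component, at 40 ng/ul according to the labels (the study's methods give a much lower concentration, and the conflict was not resolved here), while RAW_Mock cells were left without it. By those methods, Live-seq RAW_LPS cells were extracted a few hours after LPS was added. The methods do not state the exposure time of the scRNA-seq RAW_LPS cells. IBA cells are an immortalised brown preadipocyte line from interscapular fat of young male C57BL6/J mice, and ASPCs are primary adipose stem and progenitor cells from subcutaneous fat of female C57BL/6J mice aged 7 to 10 weeks. ASPC_Post cells had been treated for 2 days with DMIR, an adipogenic cocktail of dexamethasone, IBMX, insulin and rosiglitazone, and ASPC_Pre cells had not. Some Live-seq ASPCs carried a lentiviral GFP barcode. All cells were cultured in the same serum-containing medium. Before Live-seq extraction it was replaced by a carbon dioxide-independent medium with serum, which also held LPS or the cocktail for treated cells. The cell lines had not been authenticated. By the study's methods, ASPCs were confluent when induction began, whereas cultures were otherwise passaged below confluence. The labels used here give no cell density.

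A cell that has copied its DNA passes through G2 into mitosis when the kinase CDK1, bound to a B-type cyclin, becomes active. The genes of this programme encode the kinase and its regulators, the kinetochores that attach chromosomes to the spindle, the spindle itself with its motors, the condensin and topoisomerase that compact and untangle chromosomes, and the machinery of cytokinesis. Their transcripts are low in resting cells and in G1 and peak in G2 and M, after which the anaphase promoting complex, with the activator CDC20 and the ubiquitin-conjugating enzyme UBE2C, destroys many of the proteins.

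Promoters of such genes often hold a cell cycle homology region (CHR), to which the DREAM and MuvB complexes bind, together with CCAAT boxes, which bind NF-Y. In the RefSeq promoter windows (GRCm38.p6, 250 bases before to 50 bases after each start), 45 of the 51 members were found by symbol, and Cdc25c, Smc4, Aurkb, Cdca2, Tpx2 and Dlgap5 were not. A CHR was searched as TTTGAA or TTTAAA and a CCAAT box as CCAAT, each on both strands. A CHR was present in 36 of the 45 members (80.0%) against 30.6% of 27025 genes, and lay within 50 bases of the start in 62.2% of members against 9.54% of all genes. A CCAAT box was present in 77.8% of members against 41.1% of all genes, and both motifs in 64.4% against 12.2%. For comparison, 66.7% of 51 other G2 and mitosis genes and 30% of 30 S phase genes with a window had a CHR. A CCAAT box was present in 68.6% and 70% of them, near the share of the members, and both motifs in 51% and 23.3%. A match is a description of the letters in these windows, not a bound site.

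Stretches of 110 bases before to 30 bases after the start are shown for 9 members that recur below, 7 with a CHR in the stretch and 2 (Tubb4b and Cks2) without, in lower case with each CHR and CCAAT match in capitals (TTCAAA and ATTGG are the matches read on the opposite strand). They lie on GRCm38.p6 for Ccnb2 at chr9:70421525-70421664 (minus strand), Cdk1 at chr10:69352883-69353022 (minus strand), Cdc20 at chr4:118437314-118437453 (minus strand), Top2a at chr11:99024160-99024299 (minus strand), Ube2c at chr2:164769819-164769958 (plus strand), Kif23 at chr9:61946770-61946909 (minus strand), Tubb4b at chr2:25224673-25224812 (minus strand), Cks1b at chr3:89418262-89418401 (minus strand) and Cks2 at chr13:51645122-51645261 (plus strand).
Ccnb2: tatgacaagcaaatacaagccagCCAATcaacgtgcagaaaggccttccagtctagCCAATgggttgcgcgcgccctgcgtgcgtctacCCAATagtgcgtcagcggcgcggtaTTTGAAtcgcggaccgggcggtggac
Cdk1: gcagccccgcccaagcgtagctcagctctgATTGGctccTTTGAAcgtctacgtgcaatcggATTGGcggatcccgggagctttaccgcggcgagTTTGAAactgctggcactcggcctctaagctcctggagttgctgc
Cdc20: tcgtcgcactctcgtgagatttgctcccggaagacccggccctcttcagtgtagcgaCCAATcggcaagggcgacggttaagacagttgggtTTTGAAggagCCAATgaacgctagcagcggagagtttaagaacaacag
Top2a: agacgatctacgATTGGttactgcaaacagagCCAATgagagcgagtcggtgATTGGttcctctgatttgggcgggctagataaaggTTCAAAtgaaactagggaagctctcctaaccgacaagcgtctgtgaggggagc
Ube2c: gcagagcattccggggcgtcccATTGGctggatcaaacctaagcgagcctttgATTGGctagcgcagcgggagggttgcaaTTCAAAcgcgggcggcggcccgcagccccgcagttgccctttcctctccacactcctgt
Kif23: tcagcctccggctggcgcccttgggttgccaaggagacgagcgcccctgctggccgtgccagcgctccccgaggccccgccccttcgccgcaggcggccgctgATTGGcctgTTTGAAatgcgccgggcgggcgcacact
Tubb4b: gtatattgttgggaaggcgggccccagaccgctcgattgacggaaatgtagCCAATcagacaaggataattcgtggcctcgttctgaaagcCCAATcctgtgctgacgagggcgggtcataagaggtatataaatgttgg
Cks1b: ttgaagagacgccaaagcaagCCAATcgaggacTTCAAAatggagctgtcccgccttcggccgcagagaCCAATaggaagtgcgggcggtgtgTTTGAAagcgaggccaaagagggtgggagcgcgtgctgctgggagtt
Cks2: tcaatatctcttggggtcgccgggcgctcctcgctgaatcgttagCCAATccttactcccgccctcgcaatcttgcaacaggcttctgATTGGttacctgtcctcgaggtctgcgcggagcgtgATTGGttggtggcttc

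Levels are given as CPM, the counts of a gene scaled to a fixed total of the counts kept in a cell or in the summed cells of a state and batch. Batches were taken as the replicates, so that each state of each batch with at least 3 cells gave 1 sum. Nothing in the labels shows that batches were separate cultures or animals, and the p-values therefore measure only the spread between these sums. Total counts per library had a median of 506778.5 (64547 to 1603790) in Live-seq, 467677 (41030 to 2671609) in scRNA-seq and 506266 (38451 to 1077131) in the sampling experiment. The summed level of 10 macrophage genes was at least 2934 CPM in every RAW sum, wild-type cells included, and at most 606.6 CPM in the sums of IBA cells and ASPCs. That highest value was in scRNA-seq IBA cells of batch 9_1, against 8.07 and 25.8 CPM in the other scRNA-seq IBA sums. Of 8 mesenchymal genes the summed level was at most 5.63 CPM in RAW cells and at least 2611 CPM in the others. Live-seq RAW_Mock of batch 6 (8 cells) stood apart, with the lowest macrophage sum of the RAW cells (2934 CPM, others 7852 or more) and the highest level of 10 LPS-response genes among the RAW-G9 mock sums (4980 CPM). Its 5 nuclear transcripts (Malat1 and others) summed to 4.48 CPM. Of 5 endothelial genes the summed level was at most 47.6 CPM in any sum. The LPS summary below is also given without batch 6.

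In scRNA-seq, the summed level of the 51 members was 11510 CPM in batch 8_8, 9035 CPM in batch 9_1 and 9130 CPM in batch scRNA for RAW_Mock. For IBA it was 9423, 9208 and 10404 CPM in the same batches. Both lines therefore lay in the same range, at 9892 ± 1403 CPM (SD, n = 3 batches) for RAW_Mock and 9679 ± 637.7 CPM for IBA. ASPC_Pre had 6459 CPM in batch 8_8 and 1637 CPM in batch 9_1, and ASPC_Post of batch 9_1 had 1517 CPM. Every progenitor sum was thus below every sum of the lines, but the ASPC_Pre batches differed 3.95-fold from each other.

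In Live-seq, RAW_Mock had 9548, 11122, 9928 and 10491 CPM in batches 6, 7, 8_8 and 9_4, which is 10272 ± 686.2 CPM (SD, n = 4). IBA had 8558, 12757 and 6222 CPM in batches 7, 8_8 and 9_4, and spread more widely than in scRNA-seq. ASPC_Pre had 6540 CPM in batch 8_8 and 1735 CPM in batch 9_4, a 3.77-fold difference, and ASPC_Post of batch 9_4 had 1312 CPM. The same batch name was thus the high one for ASPC_Pre in both techniques. Live-seq IBA of batch 9_4, at 6222 CPM, was below ASPC_Pre of batch 8_8. A lower sum can come from fewer cells that hold these transcripts or from less of them per cell, which the counts per cell below describe.

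**Figure D1:**
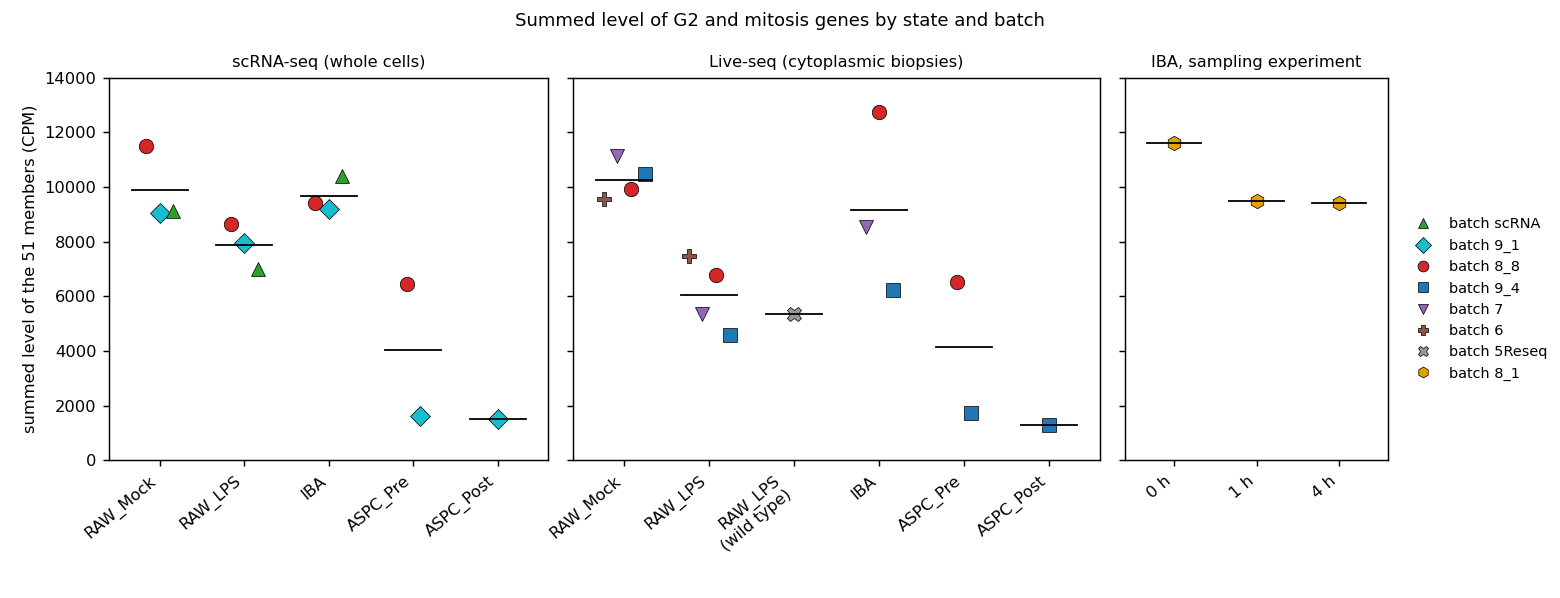
Summed level of the 51 members in CPM on the y axis, for each state on the x axis, by scRNA-seq (left), by Live-seq (middle) and in the sampling experiment (right), where 0 h marks control cells without extraction. Each point is the sum of the cells of a state in 1 batch, coloured by batch, and the line is the mean over batches. ASPC_Pre lies at 6459 and 6540 CPM in batch 8_8 and at 1637 and 1735 CPM in the other batch, and every RAW_LPS point of RAW-G9 cells is below the RAW_Mock point of its batch. Wild-type RAW_LPS cells are plotted apart, with no mock sum.

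The ASPC_Pre batches differed at most members. By scRNA-seq, 46 of the 51 members were over 2-fold higher in batch 8_8 than in batch 9_1, against 15.1% of 9298 features with a mean of at least 10 CPM, and the median ratio of the members was 6.69. By Live-seq, 35 were over 2-fold higher in batch 8_8 than in batch 9_4, against 21.4% of the features, with a median ratio of 5.58, while 8 were over 2-fold lower and 8 were within 2-fold. A total of 34 members were over 2-fold higher in batch 8_8 in both techniques. The 42 S phase genes were 3.42-fold higher in batch 8_8 by scRNA-seq and 2.85-fold by Live-seq as sums, and the 66 other G2 and mitosis genes 4.42-fold and 3.66-fold. ASPC_Pre has 2 batches in each technique, which leaves no test of a difference between them. Batches 9_1 and 9_4 also held the ASPC_Post cells. Cell density is not known by batch, and its part in the difference was not tested.

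The largest ratios between ASPC_Pre batches in scRNA-seq were those of Mki67, the proliferation marker Ki-67 that coats mitotic chromosomes, with 251.2 CPM in batch 8_8 and 11.8 CPM in batch 9_1 (19.6-fold with 1 CPM added to both). Kif23, a kinesin of the central spindle, had 71.5 and 3.58 CPM, and Ckap2l, a spindle protein, had 132 and 7.48 CPM. Anln, which encodes the cytokinetic ring protein anillin, had 222.96 and 14.4 CPM. Ect2, the exchange factor that turns on RhoA at the cleavage furrow, had 94.1 and 5.75 CPM, and Top2a, topoisomerase II alpha, had 375.4 and 28.5 CPM. Kif23, Anln and Ect2 belong to the 4 cytokinesis members.

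A few members did not follow. Tubb4b, a beta-tubulin, had 293.96 CPM in batch 8_8 and 278.4 CPM in batch 9_1, and Gtse1, a microtubule-associated protein that also regulates p53, had 68.6 and 70.8 CPM. Cbx5, which encodes the heterochromatin protein HP1 alpha, had 261.4 and 150 CPM, and Anp32e, a histone H2A.Z chaperone, had 132 and 68.2 CPM. Psrc1, a microtubule-binding protein, was higher in batch 9_1, with 44.98 CPM in batch 8_8 and 108.4 CPM in batch 9_1. These 5 were the members that were not over 2-fold higher in batch 8_8. Psrc1 was counted in 6 of 16 cells of batch 8_8 and 37 of 44 cells of batch 9_1, whereas Mki67 was counted in 13 of 16 and 8 of 44 cells. Batch 9_1 was the deeper batch, with a median of 796342 counts per cell against 345074.

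By Live-seq, Gtse1 (85.5 and 71.2 CPM in batches 8_8 and 9_4), Tubb4b (474.1 and 357.8 CPM) and Anp32e (54.9 and 82.5 CPM) were again within 2-fold between ASPC_Pre batches, the 3 members that were so in both techniques. Psrc1, over 2-fold lower in batch 8_8 by scRNA-seq, was within 2-fold by Live-seq (165.8 and 140 CPM). Members over 2-fold lower in batch 8_8 there were Nusap1, Lbr, Kif2c, Hjurp, Nek2, Cenpf, Ttk and Tacc3, of which 5 had no count at all in batch 8_8. Live-seq cells of that batch had a median of only 1637.5 genes detected, against 6060 in batch 9_4. Of their member counts, 41.2% came from 1 of the 18 cells and 59.4% from 2. Without that cell the summed level of batch 8_8 was 4656 CPM, and without both it was 3601 CPM, still above the 1735 CPM of batch 9_4. In scRNA-seq the sum of batch 8_8 was 5296 CPM without its 2 highest cells. The median per cell was 5020 CPM in batch 8_8 and 1104 CPM in batch 9_1 by scRNA-seq, and 4075 and 1074 CPM in batches 8_8 and 9_4 by Live-seq.

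The shares of single cells show the same order for scRNA-seq. After each cell was thinned to 50000 kept counts, cells of ASPC_Pre held a median of 35 members with at least 1 count in batch 8_8 (10 to 50) and of 14 in batch 9_1 (4 to 48). A majority of the list, 26 members or more, was counted in 9 of 16 cells of batch 8_8 (56.2%, exact binomial 95% interval 29.9 to 80.2%) and in 5 of 44 cells of batch 9_1 (11.4%, 3.79 to 24.6%). Without thinning these shares were 10 of 16 and 17 of 44 cells. By Live-seq the shares did not follow the summed level, with 1 of 18 cells in batch 8_8 (5.56%, 0.141 to 27.3%) and 5 of 43 in batch 9_4 (11.6%, 3.89 to 25.1%), at medians of 6.5 and 9 members. Intervals here cover only the drawing of cells within a batch. Cells are not replicates, so the intervals do not test a difference between batches.

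**Figure D2:**
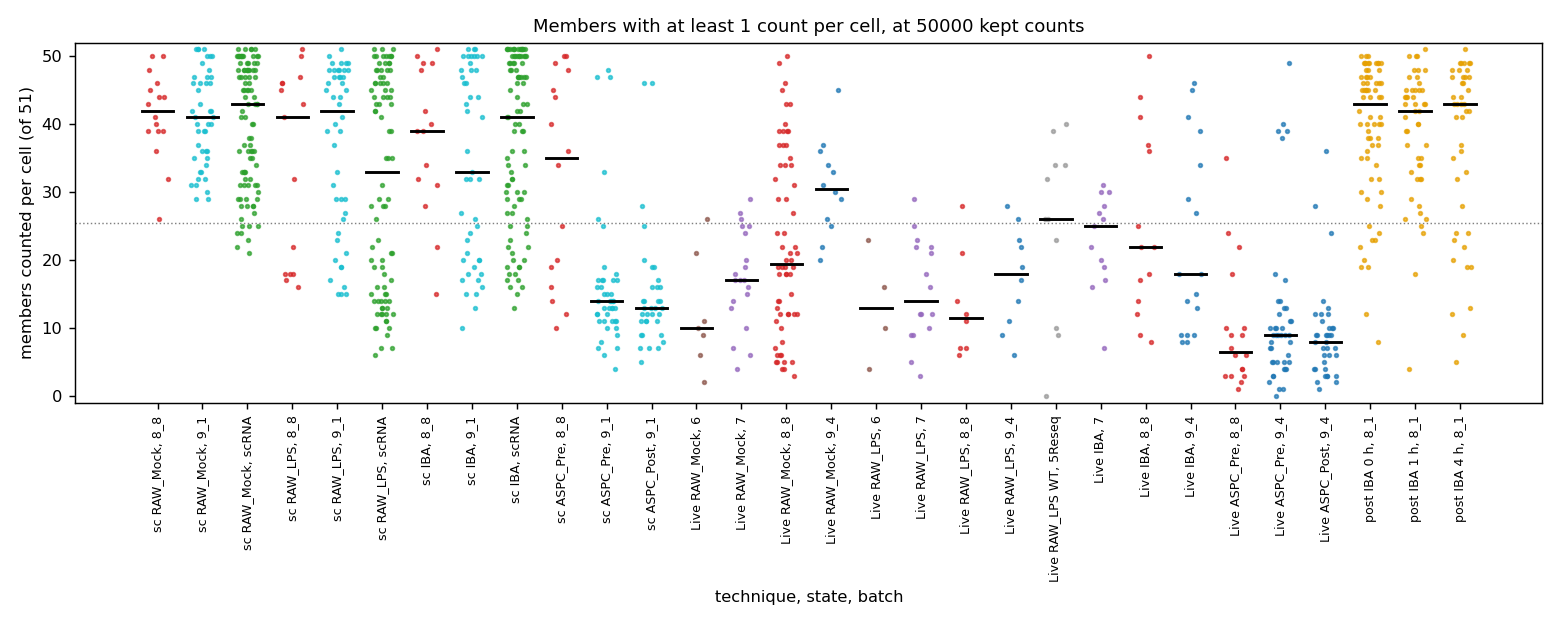
Number of the 51 members with at least 1 count in each cell (y axis) by technique, state and batch (x axis), after thinning to 50000 kept counts. Each dot is a cell, coloured by batch, the bar is the median and the dotted line separates cells with 26 or more members. ASPC_Pre cells by scRNA-seq have medians of 35 in batch 8_8 and 14 in batch 9_1, and RAW_LPS cells by scRNA-seq reach down to 16, 15 and 6 members.

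By role, the CDK1 group (Cdk1, Ccnb2, Cks1b, Cks2, Cdc25c, Cdca3, Gtse1 and G2e3) had a summed level of 1052, 1166 and 882.7 CPM in scRNA-seq RAW_Mock of batches 8_8, 9_1 and scRNA. In IBA it had 1308, 1604 and 1205 CPM, and in ASPC_Pre 880.9 CPM in batch 8_8 and 299.2 CPM in batch 9_1. Cdk1, the kinase, had 265.2, 247.97 and 290.7 CPM in RAW_Mock and 482.7, 380 and 418.4 CPM in IBA, and the fit described below did not call it (log2 fold change -0.74 ± 0.46, SE, adjusted p = 0.238). In ASPC_Pre it had 323.1 and 47.5 CPM, the first above every RAW_Mock sum. Ccnb2, cyclin B2, had 152.2, 273.5 and 177.8 CPM in RAW_Mock, 133, 407.2 and 189.5 CPM in IBA, and 60.8 and 23.4 CPM in ASPC_Pre. Cks1b and Cks2, the small subunits that dock CDK1 to its substrates, differed in level. Cks1b had 245.1 and 114.3 CPM in ASPC_Pre of batches 8_8 and 9_1 and Cks2 36.7 and 9.99 CPM. Cdc25c, the phosphatase that activates CDK1, was a low member, at 17.5 and 3.70 CPM in ASPC_Pre and 32.3, 42.6 and 34.5 CPM in RAW_Mock. G2e3, a ubiquitin ligase, was at 50.6 and 18.5 CPM in ASPC_Pre, and Cdca3, a trigger of mitotic entry, at 78.5 and 10.97 CPM.

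The anaphase promoting complex was represented by Cdc20 and Ube2c. Cdc20 had 135, 260 and 163.2 CPM in RAW_Mock, 258.7, 297.3 and 312.8 CPM in IBA and 168.98 and 28.2 CPM in ASPC_Pre of batches 8_8 and 9_1. Ube2c had 322.5, 191.5 and 164.6 CPM, 304.3, 254.4 and 334.02 CPM and 247.3 and 30.3 CPM, respectively. Both members in ASPC_Pre of batch 8_8 were within the range of RAW_Mock, and in batch 9_1 both were below every sum of the lines.

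Kinetochore, centromere and checkpoint genes showed the same split. In ASPC_Pre of batches 8_8 and 9_1, Ndc80 had 87.5 and 10.6 CPM and its partner Nuf2 91.2 and 9.66 CPM. Cenpa, the centromeric histone, had 118 and 23.2 CPM, its chaperone Hjurp 171.2 and 46.7 CPM, the kinesin Cenpe 133 and 19.4 CPM and Cenpf 63.7 and 6.04 CPM. The checkpoint kinases Bub1 and Ttk had 51.1 and 8.14 CPM and 22.9 and 2.22 CPM. Hjurp in batch 8_8 was above all 3 IBA sums (112.3, 86.9 and 126.7 CPM). The chromosomal passenger genes Aurkb (124 and 9.49 CPM), Birc5, which encodes survivin (177 and 26.5 CPM), and Cdca8, which encodes borealin (133 and 13.4 CPM), and Cdca2, which encodes the phosphatase anchor Repo-Man (41.3 and 5.01 CPM), also split by batch.

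Among spindle genes, Aurka, the centrosomal kinase, had 90.4 and 16.2 CPM in ASPC_Pre of batches 8_8 and 9_1, and Tpx2, its activator, 196.2 and 27.6 CPM. The motors Kif11 (60.8 and 3.99 CPM), Kif2c (72.5 and 6.33 CPM) and Kif20b (69.5 and 7.52 CPM) and the spindle proteins Nusap1 (96.5 and 7.07 CPM), Hmmr (73.7 and 7.97 CPM), Dlgap5 (49.4 and 5.10 CPM) and Tacc3 (166.3 and 19.2 CPM) were each 8-fold or more apart. Ckap5, a microtubule polymerase, Rangap1, the GTPase activator of Ran, and Ckap2 were 2- to 3-fold apart, at 98.5 and 48.1, 281.6 and 120.8, and 85.6 and 33.05 CPM. Nek2, the kinase of centrosome separation, had 49.4 and 11.96 CPM. Gas2l3, a cytokinesis protein that links actin and microtubules, had 16.8 and 3.53 CPM.

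Chromosome structure and nuclear envelope genes included Smc4 (242.9 and 41.1 CPM) and Ncapd2 (82.9 and 9.08 CPM), both of condensin, and Hmgb2, a DNA-bending protein (98.7 and 9.49 CPM). Hmgb2 was higher in every sum of the lines, at 678.4, 694.4 and 257.2 CPM in RAW_Mock and 413.7, 463.5 and 270.5 CPM in IBA. Tmpo and Lbr, proteins of the inner nuclear membrane, had 167.3 and 23.6 CPM and 71.2 and 20.8 CPM in ASPC_Pre.

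Per kilobase of exon, levels of different members can be set side by side. Cks1b (262.8 CPM per kb) and Tubb4b (198.1) led in RAW_Mock by scRNA-seq, followed by Hmgb2 (180.9), Anp32e (153.9) and Ccnb2 (131.4). In IBA, Cks1b (337.6) and Tubb4b (200.7) were followed by Ccnb2 (158.8) and Cdc20 (155.02), as means over batches. The lowest member per kilobase was Cdc25c in RAW_Mock (7.41) and G2e3 in IBA (4.13). No order is given for ASPC_Pre, because its batches differ by a factor that depends on the member.

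**Figure D3:**
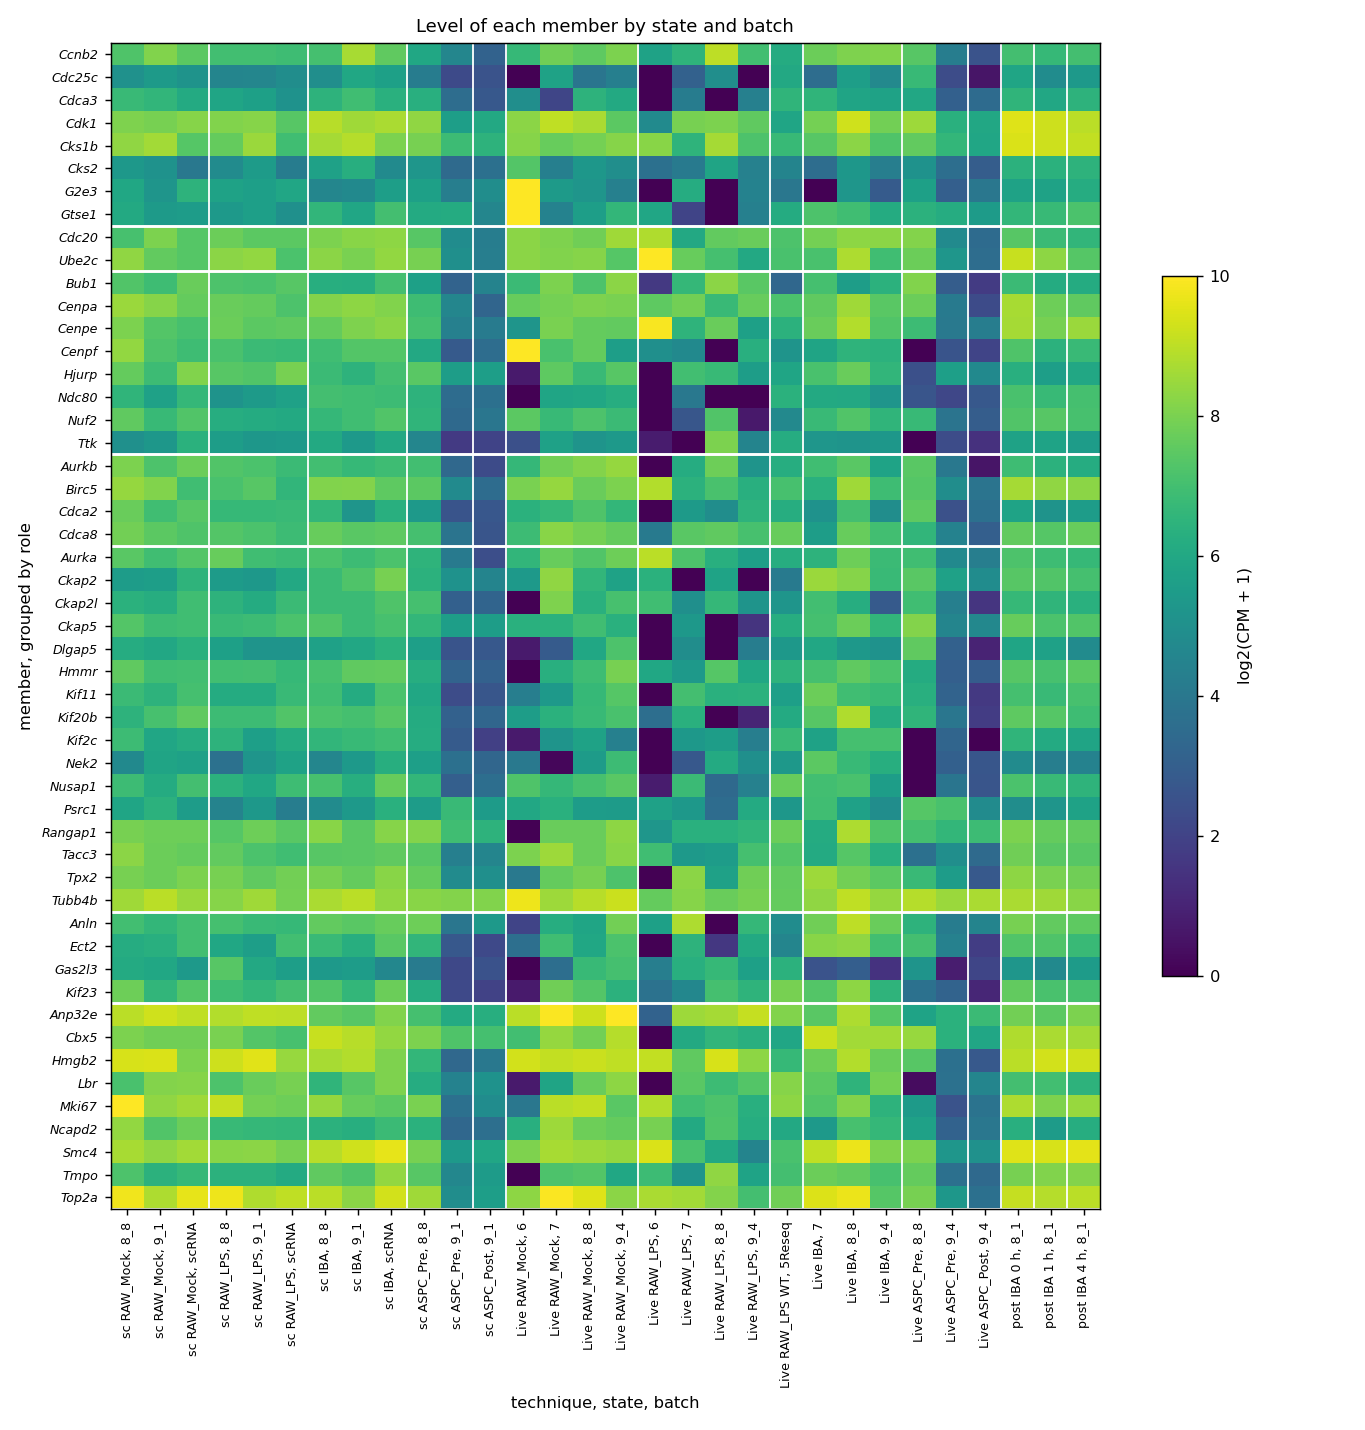
Level of each member as log2(CPM + 1) in each sum, with members in rows, grouped by role from CDK1 and its regulators at the top to chromosome structure and nuclear envelope at the bottom, and technique, state and batch in columns. Columns of ASPC_Pre in batches 9_1 and 9_4 and of ASPC_Post are dark for most members, while Tubb4b stays bright in all of them. Live-seq columns of batch 6 hold single bright and empty cells.

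Against ASPC_Pre, the lines were tested with edgeR's quasi-likelihood test on all scRNA-seq sums, with batch in the model, and called at a Benjamini-Hochberg adjusted p under 0.05 and an absolute log2 fold change over 1. RAW_Mock had 14 of 51 members called higher and 0 lower, where 12.8% of 13566 genes were called higher. DESeq2 called 23 and thinned cells gave 26, with 14.8% and 13.4% of genes called higher. The members' median log2 fold change was 1.23, with 46 of 51 above 0, against -0.28 for all genes tested. This median was 0.43 (37 above 0) without batch 9_1 and 2.87 (49 above 0) without batch 8_8. Hmgb2 had the largest rise, a log2 fold change of 3.49 ± 0.77 (SE, adjusted p = 0.0063). It was followed by Cdca2 (2.88 ± 0.56, adjusted p = 0.00354), Gas2l3 (2.71 ± 0.54, adjusted p = 0.00398), Mki67 (2.67 ± 0.68, adjusted p = 0.0118), Cenpf (2.596 ± 0.71, adjusted p = 0.0165) and Ncapd2 (2.32 ± 0.61, adjusted p = 0.0142). Each of these 6 was higher in both batches that hold both states. The other called members were Kif23, Bub1, Anp32e, Cenpa, Ccnb2, Top2a, Lbr and Aurka, with log2 fold changes between 2.18 and 1.47. With 1 batch left out, values of single members also moved. They ranged from 2.40 to 5.70 for Hmgb2, from 1.21 to 4.38 for Kif23 and from 0.76 to 3.29 for Lbr. By role, 6 of 9 genes of chromosome structure and nuclear envelope, 3 of 8 of the kinetochore group, 2 of 4 of cytokinesis, 1 of 4 chromosomal passenger genes, 1 of 8 of the CDK1 group, 1 of 16 spindle genes and 0 of the 2 anaphase promoting complex genes were called. Of the other G2 and mitosis genes 24 of 66 were called higher, and of the S phase genes 24 of 42.

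IBA had 6 of 51 members called higher and 0 lower against ASPC_Pre by the same fit, where 3.69% of 13566 genes were called higher. The count depends on the fit, with 20 members called by DESeq2 (6.24% of genes higher), 15 by the newer fit of edgeR 4 (6.21%), 17 with thinned cells (4.81%) and 2 without batch in the model (2.23%). The members' median was 1.40, with 47 of 51 above 0, against -0.12 for all genes, and was 0.47 (42 above 0) without batch 9_1 and 3.19 (49 above 0) without batch 8_8. The called members were Hmgb2 (3.18 ± 0.77, adjusted p = 0.0333), Ccnb2 (2.24 ± 0.56, adjusted p = 0.0364), Gas2l3 (2.19 ± 0.53, adjusted p = 0.0336), Cenpa (2.16 ± 0.51, adjusted p = 0.0301), Smc4 (2.12 ± 0.58, adjusted p = 0.0465) and Cbx5 (1.05 ± 0.24, adjusted p = 0.0267). With 1 batch left out, Hmgb2 ranged from 2.02 to 5.49, Ccnb2 from 1.06 to 3.60 and Cbx5 from 0.85 to 1.27. Both comparisons share the ASPC_Pre sums, and Hmgb2, Ccnb2, Gas2l3 and Cenpa were called in both. Members below 0 in these fits were Gtse1, Psrc1, Ckap2, Nek2 and Rangap1 for RAW_Mock and G2e3, Hjurp, Nek2 and Psrc1 for IBA, none of them called. Of the other G2 and mitosis genes 6 of 66 were called higher in IBA, and of the S phase genes 22 of 42.

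Both counts were lower without batch scRNA, which holds no ASPC_Pre cells. Then 10 members were called higher for RAW_Mock (11.1% of all genes) and 0 for IBA (0.826%). Leaving out batch 8_8 or batch 9_1 leaves 1 ASPC_Pre sum, so no calls are given for those fits. It also removes the sums of the lines in that batch, so the medians given above do not move with ASPC_Pre alone. Within batch 8_8, the summed level of RAW_Mock was 1.78 times and that of IBA 1.46 times that of ASPC_Pre, and within batch 9_1 the ratios were 5.52 and 5.63. The difference between these ratios was not tested.

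By Live-seq, 0 of 51 members were called by edgeR for RAW_Mock against ASPC_Pre (9 had an unadjusted p under 0.05), where 0.505% of 13466 genes were called higher, and DESeq2 called 6 (Lbr, Anp32e, Cenpf, Mki67, Tacc3 and Hmgb2, with 4.49% of genes called higher) and the edgeR 4 fit called 2 (Lbr and Hmgb2, with 1.39%). For IBA against ASPC_Pre, 0 were called (7 had an unadjusted p under 0.05), where 0.00743% of genes were called higher, and DESeq2 called 2 (Lbr and Cenpf, with 1.17% of genes called higher) and the edgeR 4 fit 0 (0.0149%). The share of all genes with an unadjusted p under 0.05 is not given, so nothing is read from the counts of 9 and 7. The members' medians were 1.34 for RAW_Mock and 1.18 for IBA, against -0.13 and 0.08 for all genes. Without batch 9_4 these medians were 0.27 and 0.59, and without batch 8_8 2.70 and 2.08. The ratios of summed levels were 1.52 and 6.05 for RAW_Mock and 1.95 and 3.59 for IBA within batches 8_8 and 9_4. In batch 8_8 the members of RAW_Mock had a median log2 ratio of 0.42, with 18 over 2-fold higher, below the median of 0.77 over 9298 features, of which 46.8% were over 2-fold higher. In simulated data of the Live-seq IBA comparison, 0% of genes changed 4-fold were recovered by this edgeR test, against 42.5% in the scRNA-seq one. The RAW_Mock comparison and DESeq2 were not simulated.

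Between the lines, few members were called. By scRNA-seq, 2 members were called higher in RAW_Mock than in IBA, where 11.9% of genes were called higher, and 2 lower, where 21.8% were. Anp32e had 500.6, 617.6 and 528.5 CPM in RAW_Mock and 194.5, 170 and 271.2 CPM in IBA (log2 fold change 1.31 ± 0.25, SE, adjusted p = 0.00361). Cdca2 had 211.6, 120 and 170 CPM against 97.96, 36.5 and 77.5 CPM (1.24 ± 0.43, adjusted p = 0.0488). Ckap2, a spindle protein, had 45.7, 47.6 and 90.7 CPM against 111.3, 151.2 and 245.7 CPM (-1.57 ± 0.31, adjusted p = 0.00389), and Cbx5 263.3, 228.6 and 228.2 CPM against 574.2, 482.5 and 335.3 CPM (-1.002 ± 0.204, adjusted p = 0.00459). The median of the members was -0.19, against -0.21 for all genes, and its sign rests on batch scRNA, without which it was 0.07 (27 members above 0). It was -0.04 without batch 9_1. Cbx5 was not called without batch 8_8 or batch 9_1, and Cdca2 and Ckap2 were not called without batch scRNA. With a batch left out, the log2 fold changes ranged from -1.07 to -0.78 for Cbx5, from 1.17 to 1.46 for Cdca2 and from -1.59 to -1.32 for Ckap2. Of the other G2 and mitosis genes 2 were called higher, and of the S phase genes 3 lower. The raised macrophage list in IBA of batch 9_1 (606.6 CPM) touches this comparison, and its part was not tested.

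The summed level was lower after LPS in every batch. By scRNA-seq, RAW_LPS had 8652, 7958 and 7005 CPM in batches 8_8, 9_1 and scRNA, against 11510, 9035 and 9130 CPM in RAW_Mock. The mean log2 ratio was -0.33 ± 0.12 (SD, n = 3), and each LPS sum was below each mock sum. Psrc1 was the only member called by edgeR, with 21.1, 39.1 and 17.8 CPM after LPS and 57.5, 84.7 and 45.1 CPM in mock cells (log2 fold change -1.16 ± 0.22, SE, adjusted p = 0.0415), where 1.7% of 11679 genes were called lower. Psrc1 was no longer called when batch 9_1 or batch scRNA was left out (adjusted p = 0.219 and 0.197), with log2 fold changes of -1.26 and -1.14. In all, 35 of 51 members had a negative log2 fold change, with a median of -0.18 against -0.01 for all genes. That median was -0.09 without batch 8_8 and -0.28 without batch 9_1.

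Members with an adjusted p just above the threshold were Ncapd2 (331.5, 155.9 and 215.3 CPM in mock, 107.03, 100.7 and 98.5 CPM after LPS, adjusted p = 0.0571), Nuf2 (188.7, 105.97 and 153.5 against 74.1, 69.7 and 66.0 CPM, adjusted p = 0.0588), Cdca3 (108.3, 94.9 and 67.6 against 57.4, 50.6 and 33.5 CPM, adjusted p = 0.0597) and Mki67 (1100, 326.7 and 377.9 against 562.5, 238.6 and 220 CPM, adjusted p = 0.0697). All 4 were lower after LPS in each batch, and none was called. At the other end, Gas2l3 had 167.1, 64.7 and 47.05 CPM after LPS and 69.1, 60.6 and 40.1 CPM in mock cells (log2 fold change 0.66 ± 0.28, adjusted p = 0.229). Cdk1 (-0.03 ± 0.22), Top2a (-0.06 ± 0.15), Aurka (0.05 ± 0.19) and Tpx2 (0.03 ± 0.13) had log2 fold changes near 0, while Aurkb (-0.43 ± 0.21), Birc5 (-0.65 ± 0.21) and Ccnb2 (-0.54 ± 0.20) were negative without passing the test. Ube2c (0.30 ± 0.22), Cdc20 (0.21 ± 0.24) and Hmgb2 (0.27 ± 0.15) were above 0, also without passing.

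S phase genes are given beside the members. Of 42 S phase genes, 14 were called lower and 42 had a negative log2 fold change, with a median of -1.08. The summed level of the S phase genes went from 7477, 6831 and 7437 CPM to 2837, 4193 and 2840 CPM in batches 8_8, 9_1 and scRNA. Dtl, which targets the licensing factor CDT1 for destruction, had a log2 fold change of -2.16 ± 0.32 (adjusted p = 0.0237), and Ung, a uracil glycosylase, -2.43 ± 0.31 (adjusted p = 0.0154). Of the 66 other G2 and mitosis genes, 4 were called lower, namely Cenpn (-1.42 ± 0.27), Foxm1 (-1.23 ± 0.25), Cdc25b (-1.02 ± 0.21) and Mybl2 (-1.01 ± 0.18), with adjusted p between 0.038 and 0.0494 and a median of -0.37 for the list. Foxm1 and Mybl2 encode transcription factors of G2 and mitosis genes. The difference between the lists was not tested.

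Counts per cell were compared after thinning to the same number of kept counts, and genes detected per cell were not matched. By scRNA-seq at 50000 kept counts, 26 or more members were counted in 16 of 16, 45 of 45 and 87 of 95 RAW_Mock cells of batches 8_8, 9_1 and scRNA. After LPS the counts were 9 of 15 (60%, exact binomial 95% interval 32.3 to 83.7%), 35 of 46 (76.1%, 61.2 to 87.4%) and 51 of 88 (57.95%, 46.95 to 68.4%). Cells of a batch are not replicates, so these intervals do not test LPS against mock. The lowest mock cells held 26, 29 and 21 members, and the lowest LPS cells 16, 15 and 6. The medians differed less, at 42, 41 and 43 members in mock cells and 41, 42 and 33 after LPS. Without thinning, the shares were 66.7, 89.1 and 65.9% after LPS and 100, 97.8 and 98.9% in mock cells.

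By Live-seq, RAW_LPS had 7465, 5359, 6794 and 4591 CPM in batches 6, 7, 8_8 and 9_4, against 9548, 11122, 9928 and 10491 CPM in RAW_Mock. Some of these RAW_LPS cells had already been extracted once before LPS, and the part of that extraction was not tested. The mean log2 ratio was -0.79 ± 0.40 (SD, n = 4), and no LPS sum reached a mock sum. When each cell was weighted equally, the mean was -0.45 ± 0.85 and batch 6, with 4 LPS cells, was higher after LPS. Without batch 6 the mean was -0.93. By edgeR 0 of 51 members were called (3 had an unadjusted p under 0.05), where 0% of 9296 genes were called lower, and DESeq2 called 3 (Gtse1, Nuf2 and Ckap5, with 1.29% of genes called lower). The members with an unadjusted p under 0.05 by edgeR were Gtse1, Tacc3 and Ckap5. As the share of all genes at that threshold is not given, nothing is read from this count. Tacc3, a spindle protein, had 258.9, 370, 208.1 and 300 CPM in mock cells and 122, 40.96, 45.4 and 133 CPM after LPS (log2 fold change -1.87 ± 0.69, SE, unadjusted p = 0.0312 in the edgeR fit, adjusted p = 1.00). Of the 51 members, 45 had a negative log2 fold change, with a median of -0.96 against -0.38 for all genes.

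In simulated data of the Live-seq LPS comparison, 0.505% of genes changed 4-fold were recovered, against 76.9% in the scRNA-seq one. The difference of the LPS effects between techniques was tested as an interaction, and 0 of 51 members were called by edgeR (2 had an unadjusted p under 0.05), where 0% of 11557 genes were called, and DESeq2 called 1 (Ckap5, with 0.545% of genes called in either direction). Its median was -0.84 for the members and -0.45 for all genes. Nothing is read from the 2 members with an unadjusted p under 0.05, as the share of all genes is not given. Role groups by Live-seq had medians from -1.90 (CDK1 and its regulators) to 0.22 (cytokinesis), with 0 called in each. Single cells weigh on both ends, with 1 cell giving 94.4% of the Gtse1 counts and 1 cell all of the G2e3 counts in RAW_Mock of batch 6, and 1 cell 83.9% of the Anln counts (a cytokinesis gene) in RAW_LPS of batch 7. Of the S phase genes, 35 of 41 tested were below 0 (median -1.12), and of the other G2 and mitosis genes 59 of 66 (median -2.15), also with 0 called.

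**Figure D4:**
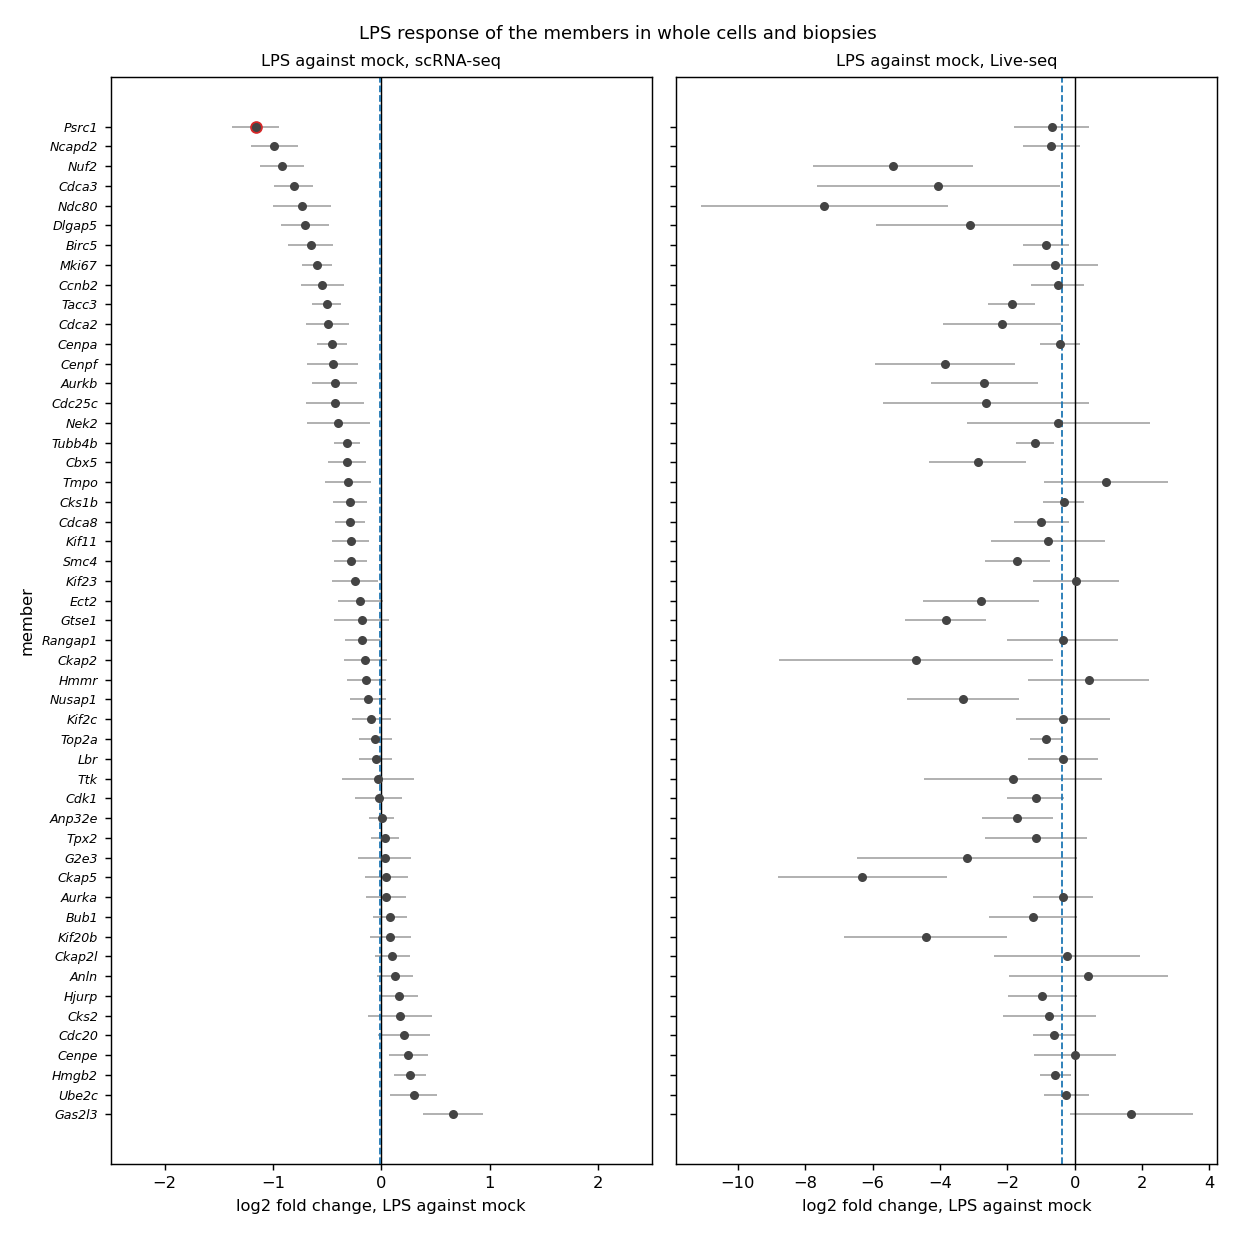
Log2 fold change of each member after LPS against mock (x axis, points with SE bars) by scRNA-seq (left) and Live-seq (right, wider axis), members ordered by the scRNA-seq value. The dashed line is the median of all genes tested, and red marks the called member. Psrc1 is the single red point, and among the lowest Live-seq values are members at 0 in some batches after LPS, such as Ndc80 and Ckap5, whose fitted value depends on the prior count.

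In 4 RAW cells, the same cell was sampled before and after LPS. Each second sample also followed the first extraction, so LPS, extraction and time are not separated in these pairs. The summed level was lower after LPS in 4 of 4, going from 20429 to 5106 CPM, from 16634 to 5007 CPM, from 15550 to 3835 CPM and from 12386 to 1370 CPM. The median log2 ratio was -2.01. All 4 first samples were above the median mock cell of their batch, 10406 CPM in batch 7 and 10853 CPM in batch 9_4. The one at 20429 CPM was the highest of the 12 mock cells of batch 9_4. Single members were uneven. Tacc3, Smc4 and G2e3 were lower after LPS in 4 of 4 cells, whereas Tpx2 was higher in 3 and lower in 1, Aurka was higher in 2 and lower in 1, and Hjurp was higher in 2 and Nek2 in 1, with neither lower in any. The share of all features lower in 4 of 4 cells was not computed, so that nothing is read from these counts. The labels of the last of these cells give the first extraction for both libraries. In 1 of the 4 cells, that going from 16634 to 5007 CPM, the first sample held only 7 members with a count and the second 25. Top2a (10225 CPM) and Mki67 (4101 CPM) gave most of that first level and had 127.4 and 0 CPM in the second. The fall in this cell therefore rests on Top2a and Mki67. Most members counted in its second sample had no count in its first.

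Pairs of ASPC libraries were taken from the pair identifiers in the labels, and whether a recovered barcode also ties each pair to 1 cell was not checked here. The study counts fewer ASPC pairs tied by barcode than the labels pair, so the split below may include a pair that is not 1 cell. In the 9 ASPCs paired in this way before and after adipogenic induction, the summed level was lower in 5 and higher in 4, with a median log2 ratio of -0.44. A high level before induction was found in 2 cells, at 10650 and 10427 CPM with 49 and 39 members counted, and these cells had 750 and 922.1 CPM with 9 and 10 members after it. The other 7 cells had between 235.7 and 1479 CPM before and between 213.8 and 2811 CPM after induction. Each second sample also followed the first extraction, so induction, extraction and time are not separated in these pairs. Such second samples are also among the Live-seq ASPC_Post cells. Cells were not replicates of a condition here, and no test was made.

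**Figure D5:**
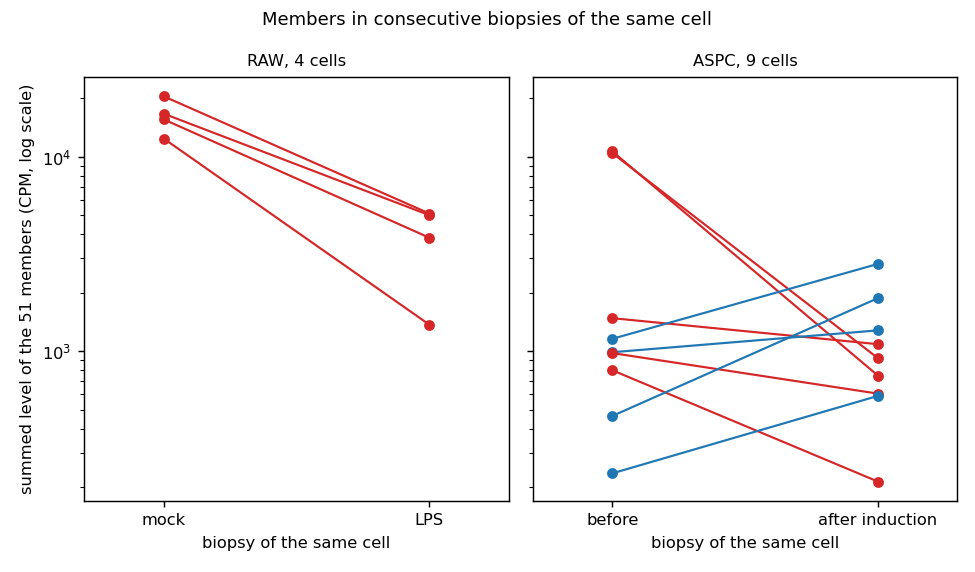
Summed level of the 51 members in CPM (log scale, y axis) in 2 consecutive biopsies that the labels pair as one cell, for 4 RAW cells before and after LPS (left) and 9 ASPCs before and after induction (right). Lines join the biopsies of a cell, red where the second level is lower and blue where it is higher. All 4 RAW lines go down, and the 2 highest ASPCs go from 10650 and 10427 CPM to 750 and 922.1 CPM. The RAW line from 16634 to 5007 CPM falls mainly through Top2a and Mki67.

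Adipogenic induction was measured in 1 batch of each technique, so there is no replicate of the difference and no test. Intervals are exact Poisson 95% intervals of the counts, which cover counting error only. By scRNA-seq, ASPC_Pre had 1637 CPM (1621 to 1653) and ASPC_Post 1517 CPM (1499 to 1536), 28 members were higher and 23 lower, and the median log2 ratio of the members was 0.14 against -0.07 for 9298 features. By Live-seq the levels were 1735 CPM before and 1312 CPM after induction, 37 members were lower, and the median was -0.85 against -0.14. The share of cells with 26 or more members was 5 of 44 before and 3 of 35 after by scRNA-seq, and 5 of 43 and 2 of 37 by Live-seq. In scRNA-seq, 20.7% of the member counts of ASPC_Post came from 1 cell, and without it the level was 1261 CPM.

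The 6 adipogenic genes summed to 481.7 CPM before and 1024 CPM after induction by scRNA-seq and to 513.5 and 704.5 CPM by Live-seq, and Adipoq was at 0 in each of these sums. Nuclear transcripts went from 1242 to 12597 CPM by scRNA-seq and from 1383 to 7317 CPM by Live-seq, and their part in the differences was not tested. Single members went different ways. Psrc1 had 108.4 CPM (104.3 to 112.6) before and 43.7 CPM (40.7 to 46.96) after induction by scRNA-seq, and 140 CPM (135 to 146.3) and 27.1 CPM (24.6 to 29.8) by Live-seq. Gtse1 had 70.8 and 22.9 CPM by scRNA-seq and 71.2 and 44.4 CPM by Live-seq. The 2 members that were not lower in scRNA-seq ASPC_Pre of batch 9_1 than in that of batch 8_8 were thus lower after induction in each technique. Ccnb2 (23.4 to 7.90 CPM and 17.9 to 4.94 CPM), Cenpa (23.2 to 8.71 CPM and 16.1 to 3.88 CPM), Birc5 (26.5 to 10.6 CPM and 29.04 to 13.3 CPM) and Aurkb (9.49 to 3.89 CPM and 15.1 to 0.50 CPM) were also lower in both. Mki67 (11.8 to 27.8 CPM and 4.90 to 13.2 CPM) and Anln (14.4 to 40.2 CPM and 17.4 to 21.6 CPM) were higher in both, though Mki67 after induction was counted in only 2 of 35 and 2 of 37 cells. Tubb4b was at 278.4 and 276.6 CPM by scRNA-seq and 357.8 and 422.1 CPM by Live-seq.

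IBA cells of batch 8_1 had a summed level of 9476 CPM at 1 h and 9429 CPM at 4 h after Live-seq extraction, against 11606 CPM in the control cells without extraction (labelled 0 h), in 1 batch and without a test. The contrast with 0 h is one of sampled against unsampled cells. By the study's methods the controls were collected along with the extracted cells. The labels do not give their times, so extraction and time are not separated in it. Among extracted cells, the 4 h sum was 0.995 times the 1 h sum, with 25 members higher, 26 lower and a median log2 ratio of -0.02. At 1 h 44 of 51 members were lower than at 0 h and at 4 h 39 were, with medians of -0.32 and -0.34 against -0.07 and -0.05 for all features. Ube2c had 564 CPM (554.8 to 573.6) at 0 h, 312.02 CPM (304.6 to 320) at 1 h and 164.7 CPM (158.5 to 171.1) at 4 h, and Cdc20 had 167.1, 111.9 and 95.2 CPM. Cenpa had 414.3, 217.9 and 188.2 CPM and Bub1 110.8, 69.4 and 69.8 CPM. These 4 members were lower at both later times, whereas Hmgb2 (495.3, 636.2 and 627.4 CPM) and Gtse1 (98.2, 105.6 and 144.3 CPM) were higher at both. Also higher at both were Psrc1 (28.8, 36.1 and 53.5 CPM), Tmpo (249.4, 271.3 and 284.96 CPM) and G2e3 (52.66, 52.86 and 72.8 CPM). The intervals given for Ube2c cover counting error of reads only and do not test a difference between these groups. Over 2-fold lower than at 0 h was 1 member at 1 h and 3 at 4 h, where 3.52% and 5.12% of 9298 features were. The S phase list had 7466, 9154 and 8458 CPM. The share of cells with 26 or more members was 58 of 68, 45 of 49 and 32 of 43. The mitochondrial share of the counts was also higher, with medians of 4.52%, 8.74% and 9.01%, and its part in these differences was not tested.

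Biopsies and whole cells were compared for both lines. For RAW_Mock, 0 of 51 members were called by edgeR over 7 sums (0 had an unadjusted p under 0.05), where 0% of 11176 genes were called, and DESeq2 and the edgeR 4 fit called 0 members. For IBA, 0 of 51 were called over 6 sums (4 had an unadjusted p under 0.05), where 0% of 12293 genes were called, and DESeq2 and the edgeR 4 fit called 0 members. For neither line is the share of all genes with an unadjusted p under 0.05 given, so nothing is read from the counts of 0 and 4. The members' medians were 0.05 and 0.01, against -0.13 and -0.02 for all genes, and their signs are not stable. Without batch 8_8 the IBA median was -0.41 (11 members above 0), and the RAW_Mock median was -0.05 with no filter, -0.01 without batch 7 and -0.03 without batch 9_1. In batch 8_8, which holds both techniques, the Live-seq sum was 0.862 times the scRNA-seq sum for RAW_Mock, 1.35 times for IBA, 1.01 times for ASPC_Pre and 0.785 times for RAW_LPS. After thinning to equal kept counts, fewer members were counted per cell in biopsies. Medians by batch were 10 to 30.5 against 41 to 43 in RAW_Mock and 18 to 25 against 33 to 41 in IBA. Fewer genes in all were also detected per biopsy. Medians of genes detected were 1536 to 4413.5 against 7305 to 8923.5 in RAW_Mock and 3378 to 6279 against 8423 to 9787 in IBA. Genes detected were not matched, and whether fewer members were counted than other genes was not tested. Gas2l3 had the smallest unadjusted p in IBA, with 40.9, 45.4 and 23.5 CPM in whole cells and 4.95, 6.94 and 1.78 CPM in biopsies (unadjusted p = 0.0117 in the edgeR fit, adjusted p = 0.684).

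Wild-type RAW264.7 cells were sampled in 1 batch by Live-seq. The 11 RAW_LPS cells had a summed level of 5350 CPM, within the range of RAW-G9 cells after LPS (4591 to 7465 CPM), and a median of 26 members per cell, above the 11.5 to 18 of the RAW-G9 batches. The single wild-type RAW_Mock library held 1 count of the 51 members, which is 2.83 CPM, and 7 of its 10 macrophage genes were at 0. No mock level can be drawn from it, and the wild-type line was left out of the fits for LPS.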

How the data were processed

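The gene counts were deposited by the authors as 1 table of whole-number counts per gene and cell. Per the submitters' processing notes, reads were demultiplexed with bcl2fastq (2.19.1), aligned with STAR (2.6.1c) to mm10 (GRCm38) and counted with HTSeq. The study's methods add that only the first read, of 75 bases, was used. The library chemistry has no molecular identifiers, so counts are reads and Poisson intervals cover counting error only. Symbols come from GENCODE vM21, and 128 features had none. Here, as in the study's methods, 84 ribosomal protein genes and 20 genes found in negative controls were left out (24.2% of a cell's counts at the median), and 918 features had no count. Cells were grouped by the labels' technique, line, treatment and batch, and summed per state and batch with at least 3 cells.

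The sums were tested with edgeR 4.0.16 (R 4.3.3) by the quasi-likelihood test in its legacy form, with TMM scaling, batch in the model and a prior count of 0.125. Comparisons between techniques had no batch term. A gene entered the tests if 15% or more of the scRNA-seq cells in any state held 2 counts of it and if it passed filterByExpr (minimum count 2, minimum proportion 0.05). A gene was called at a Benjamini-Hochberg adjusted p under 0.05 over all genes tested and an absolute log2 fold change over 1. Batch numbers pair the states, since the labels give a shared batch. Deviations of the LPS and mock sums of a batch correlated at 0.454, 0.257 and 0.368 in scRNA-seq batches scRNA, 8_8 and 9_1, and at 0.189 (batch 6), 0.0785 (batch 7), 0.0235 (batch 8_8) and 0.1 (batch 9_4) in Live-seq. The test was tried on simulated data made from these sums, with about 200 genes changed 4-fold in either direction, and the share recovered is given beside the comparison it simulated.

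Counts of members per cell were taken after thinning each cell to 50000 kept counts, which left out 6 cells. Ratios within a batch had 1 CPM added. Intervals are exact, at 95%. Members called by edgeR are named for each comparison, all of them where up to 12 were called and otherwise at least the 6 with the largest rise, most of those called only under an alternative are given as counts, and each of the 51 members is named with its level. Lists of macrophage, mesenchymal, LPS-response, adipogenic, endothelial, nuclear-transcript, S phase and other G2 and mitosis genes were used for comparison. The members and lists were chosen with earlier results of these data known. Alternatives were DESeq2 1.42.0 as the test, its size factors, the newer fit of edgeR 4, no filter, thinned cells, all genes kept, no batch term, each batch left out, cells weighted equally, the 5 most counted members left out, and thinning to 100000 (31 cells left out) or none. Figures and levels were made with Python 3.11.15 and matplotlib 3.10.9.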

Additional observations from a re-analysis of the deposited data

Results flagged for a closer look

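Of 46 groups of 4 Live-seq sums (RAW_Mock or RAW_LPS in batches 6, 7, 8_8 and 9_4), 10 held a sum that stood apart from the other three by Dixon's test at its 95% critical value, where chance gives about 1 in 20. In RAW_Mock, batch 6 (8 cells) held 5 of them. Its S phase genes summed to 3868 CPM, against 7903 to 8503 CPM in the other batches. Cks2 was at 160 CPM there (next 38.2 CPM), Gtse1 at 1040 CPM (next 96.7 CPM), G2e3 at 1201 CPM (next 42.5 CPM) and Cenpf at 1128 CPM (next 195.4 CPM). A single cell gave 94.4% of the Gtse1 counts, 100% of the G2e3 counts and 99.9% of the Cenpf counts of that sum. Ckap5 in RAW_Mock was highest in batch 8_8, at 122 CPM (next 82.2 CPM).

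In RAW_LPS, batch 6 (4 cells) had the high sums of Birc5, 465.8 CPM (next 138.4 CPM), and Ube2c, 1174 CPM (next 204.6 CPM). Ccnb2 was at 510.98 CPM in batch 8_8 (next 125 CPM), and Ckap5 at 39.05 CPM in batch 7, where the other batches had 0 to 1.86 CPM. The part of the small number of cells in these values was not tested.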

How the results depend on the processing

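No called member changed sign under the alternatives run, but medians of the members near 0 did. For RAW_Mock against IBA the median went from -0.19 to 0.07 without batch scRNA, and for Live-seq against scRNA-seq it went from 0.01 to -0.08 with no filter, -0.04 with thinned cells, -0.02 without 9_1 and -0.41 without 8_8 in IBA, and from 0.05 to between -0.05 and -0.01 with no filter, without 7 or without 9_1 in RAW_Mock. The log2 ratio of summed levels of RAW_Mock to IBA was 0.02, and -0.11 to 0.13 with a batch left out. Among the results that answer a comparison, 140 values under an alternative stayed with the reported one, 16 were stronger, 9 weaker and 14 moved, and among single members and medians 44 were weaker and 37 moved while the others stayed, and the cause was not tested except where fewer samples or genes enter. In this paragraph, counts of members are given with the share of all genes called under the same alternative. The share is for the same direction unless marked as either direction. Members called by DESeq2 numbered 3 for LPS by Live-seq (1.29%), 20 for IBA (6.24%) and 23 for RAW_Mock (14.8%) against ASPC_Pre by scRNA-seq, 2 (1.17%) and 6 (4.49%) for the same comparisons by Live-seq, and 1 for the interaction (0.545% in either direction). The edgeR 4 fit called 15 for IBA against ASPC_Pre by scRNA-seq (6.21%) and 2 for RAW_Mock against ASPC_Pre by Live-seq (1.39%). Thinned cells gave 3 for LPS by scRNA-seq (2.995% lower), 17 (4.81%) and 26 (13.4%) for IBA and RAW_Mock against ASPC_Pre by scRNA-seq, and 5 for RAW_Mock against ASPC_Pre by Live-seq (1.84%). With all genes kept, 1 was called higher and 1 lower between RAW_Mock and IBA (33.4% in either direction). Batch is the replicate block of these fits, and without the replicate block 0 members were called for LPS by scRNA-seq (0.24% lower), 2 for IBA (2.23%) and 10 for RAW_Mock (11.4%) against ASPC_Pre by scRNA-seq. The comparisons between techniques have no block.

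With each batch left out, calls ranged from 0 to 1 for LPS by scRNA-seq (0 without 9_1 or scRNA). Between RAW_Mock and IBA they ranged from 2 (1 higher and 1 lower, without scRNA) to 7 (6 higher and 1 lower, without 9_1). Without batch 6, 2 members were called for RAW_Mock against ASPC_Pre by Live-seq. The share of all genes called under these alternatives is not given, so nothing is read from these counts. Against ASPC_Pre by scRNA-seq, only leaving out batch scRNA keeps 2 ASPC_Pre sums, and those counts are given above. The log2 ratio of summed levels ranged from 0.54 to 2.49 for IBA and from 0.83 to 2.46 for RAW_Mock against ASPC_Pre by scRNA-seq. Cbx5 between RAW_Mock and IBA was also not called with DESeq2, its size factors or all genes kept, nor Cdca2 with no filter, all genes kept or no replicate block.

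With cells weighted equally and without the 5 most counted members, the log2 ratio of summed levels was -0.14 and -0.22 for adipogenic induction by scRNA-seq (reported -0.11), -0.26 and -0.73 by Live-seq (-0.40), -0.36 and -0.36 for IBA at 1 h (-0.29) and -0.36 and -0.40 at 4 h (-0.30). Without thinning, the median members per cell were 32 in wild-type RAW_LPS (26 thinned), 22 in scRNA-seq ASPC_Post (13), 44.7 in IBA (37.7) and 45.8 in RAW_Mock (42), and at 100000 kept counts 42 in IBA and 43.7 in RAW_Mock. The ASPC_Pre sums without their 1 or 2 highest cells, an alternative chosen after seeing the data, were 4656 and 3601 CPM (Live-seq 8_8), 1575 and 1411 CPM (9_4), 5938 and 5296 CPM (scRNA-seq 8_8) and 1509 and 1442 CPM (9_1).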
